A study of Homo sapiens with 12 samples.

Results

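The neighbourhood of MYC and POU5F1B was taken as all H3K27ac peaks on human chromosome 8 between 126.4 and 129.4 Mb (GRCh38), in each of 12 chromatin immunoprecipitation sequencing libraries. Peaks that shared at least 1 bp in any libraries were merged, which gave 446 loci in the 3 Mb interval, of 188651 loci in the genome. The members were chosen by position, and the neighbourhood was selected on the position, width and fold of peaks in these same libraries, with earlier results known. The contrast between the cell lines inside it is therefore a description: its values and fitted differences are given with no p-value, and nothing is read from how many loci passed a threshold. The outermost loci inside it lie at 126401731 to 126402129 (peaks in 2 libraries, up to 309 bp) and at 129268742 to 129270042 (5 libraries, up to 1255 bp). The nearest loci outside it lie at 126394809 to 126395008 (1 library, 200 bp) and at 129514724 to 129515047 (1 library, 324 bp).

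H3K27ac marks active promoters and enhancers. MYC encodes a transcription factor that dimerises with MAX and drives growth genes. It lies in a gene desert whose distal enhancers differ between tissues. POU5F1B is a retrogene copy of POU5F1, the pluripotency factor OCT4, and lies in the same desert. PVT1, a long noncoding RNA gene that starts downstream of MYC, holds many enhancers within its body, and CCAT1, CCAT2, CASC8, CASC19 and CASC21 are long noncoding RNA genes near POU5F1B that are known from colorectal cancer.

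Both cell lines derive from human pancreatic ductal adenocarcinoma, and each of 6 groups had 2 libraries. MiaPaCa2 cells, grown in DMEM with 10% fetal bovine serum, had received 1000 U/ml human IFN-beta for 2 h or were untreated. CFPAC1 cells, grown in IMDM with 10% serum, formed 4 groups, all made with the anti-H3K27ac antibody ab4729 as in MiaPaCa2. The IRF1 knockout clones were CFPAC1 cells infected with lentiCRISPRv2 that carried Cas9 and a guide to IRF1, which encodes a transcription factor induced by interferons, and the WT clones were infected with the empty vector. Both kinds of clone came from single-cell dilution, so each library is 1 clone. The other CFPAC1 groups were bulk cells with 1000 U/ml IFN-beta for 2 h and untreated bulk cells. Nothing in the labels says that the bulk libraries of a group were separate cultures, so the p-values measure the spread between libraries, which may be technical. Line and growth medium cannot be told apart. The labels name HiSeq2000 and NextSeq500 without assigning libraries to either, so sequencing run was not tested.

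The lists held 59896 to 109834 peaks, with the fewest in IFN-beta-treated MiaPaCa2 and the most in IRF1 knockout clone 2. Read depth is unknown. In IRF1 knockout clone 2, peaks covered 1.48% of chromosome 8 outside the interval, against 2.05% to 2.71% in the other CFPAC1 libraries. For the knockout comparison, the count of loci called by limma is therefore also given without it. The IRF1 window itself held 7533 and 8924 bp of peaks in the knockout clones and 5485 and 5611 bp in the WT clones, which does not check the knockout, since acetylation is not the product of the gene. Of 10 epithelial marker genes, EPCAM, CDH1, KLF5 and GRHL2 had no peak within 5 kb in any MiaPaCa2 library, and all 10 were covered in CFPAC1. KRT7 held 0 to 1786 bp in MiaPaCa2 and 5215 to 7648 bp in CFPAC1. At ELF3 the lines overlapped, with 2581 to 8236 bp in MiaPaCa2 and 6086 to 8883 bp in CFPAC1. The keratin gene KRT19 was covered over 8978 to 9620 bp in MiaPaCa2 and 9422 to 9968 bp in CFPAC1, and KRT8 and KRT18 also had peaks in every library. CLDN4, a tight junction gene, went the other way, with 8665 to 9103 bp in MiaPaCa2 and 7130 to 7628 bp in CFPAC1. Of 5 mesenchymal markers, VIM held 8666 to 9632 bp in MiaPaCa2 and 3583 to 6334 bp in CFPAC1, while CDH2 and FN1 had none in MiaPaCa2. The other markers of this list also went against VIM. SNAI2 held 395 to 1057 bp in MiaPaCa2 and 3497 to 5288 bp in CFPAC1, and ZEB1 3231 to 3850 bp and 4130 to 6201 bp. Of 5 markers of other cell types, PTPRC (leukocytes) and PRSS1 (acinar cells) were at 0 in all 12 libraries. PECAM1 (endothelium) held 300 to 3438 bp in the CFPAC1 libraries, CPA1 (acinar cells) had peaks in 5 libraries, up to 2384 bp, and INS (endocrine cells) had peaks in 3 MiaPaCa2 libraries, up to 2555 bp. IFN-beta raised peak coverage at 8 of 12 interferon-response genes in CFPAC1, where 0.677% of all gene windows were called higher and 0.309% lower, and at 7 of 10 with values in MiaPaCa2, where 0.561% were called higher and 0.0902% lower (limma).

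Peaks covered more of the neighbourhood in MiaPaCa2 than in CFPAC1. Copy number of the interval in either line is not given, so its part in this difference was not tested. Peaks covered 548 and 639 kb of it in IFN-beta-treated MiaPaCa2 and 570 and 546 kb in untreated MiaPaCa2. They covered 208 and 215 kb in the IRF1 knockout clones, 196 and 209 kb in the WT clones, 204 and 233 kb in IFN-beta-treated CFPAC1, and 255 and 312 kb in untreated CFPAC1. The ranges of the lines do not overlap. As a share of the interval this was 18.2% to 21.3% in the MiaPaCa2 libraries and 6.53% to 10.4% in the CFPAC1 libraries. Across the rest of chromosome 8 the order was the other way, with 1.11% to 1.37% in MiaPaCa2 and 1.48% to 2.71% in CFPAC1. In the 3 Mb directly to the left, peaks covered 19.0 to 23.6 kb in MiaPaCa2 and 104 to 172 kb in CFPAC1. In the 3 Mb directly to the right the lines overlapped, with 35.8 to 81.3 kb in MiaPaCa2 and 79.5 to 157 kb in CFPAC1.

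**Figure D1:**
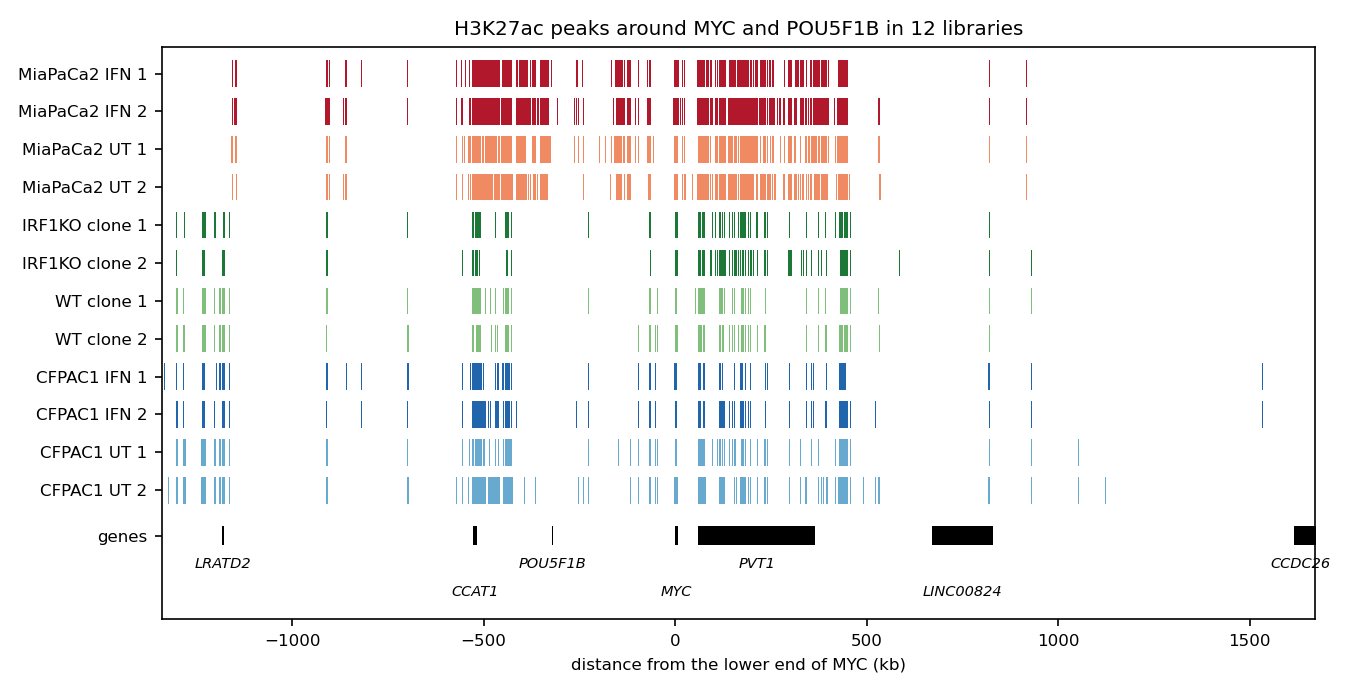
Peaks of the 12 libraries (rows, coloured by group) by distance from the lower end of MYC in kb, with the positions of 7 genes below (black bars). MiaPaCa2 peaks cover 68.4% to 83.8% of the stretch from CASC19 to POU5F1B and 63.5% to 77.1% of PVT1, against 12.4% to 38.3% and 17.6% to 34.9% in CFPAC1, and are almost absent left of LRATD2.

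The longest peaks were more numerous in MiaPaCa2, while the median peak width in the neighbourhood overlapped between the lines, at 515 to 613 bp in MiaPaCa2 and 476.5 to 646.5 bp in CFPAC1. Each MiaPaCa2 library had 10 to 13 peaks over 10 kb in the neighbourhood, of 439 to 612 in its whole list, and each CFPAC1 library had 0 to 2 of 65 to 121. The widest was a peak of 33891 bp at 127241306 to 127275196, over CASC21, in IFN-beta-treated MiaPaCa2 replicate 2. In untreated CFPAC1 replicate 2 the widest peak, of 21685 bp over CCAT1, ranked 4 by width among all peaks of that library. When peaks up to 12.5 kb apart were joined, the region with most covered bases in each MiaPaCa2 library spanned PVT1 over 354 to 403 kb and ranked 5 to 9 among 15170 to 15954 joined regions. The best region of a CFPAC1 library ranked 13 to 155.

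Most loci were not shared. Of the 446 loci, 134 had a peak in 1 library, and 34 had a peak in all 12, of which 18 lay in the PVT1 body, 4 between CASC19 and POU5F1B, and 1 over MYC. Replicates of a group shared 63.6% to 88.6% of the loci of either library. Their peaks in the interval overlapped over 0.621 to 0.767 of the bases covered by either, with the lowest value in the IRF1 knockout clones.

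MYC, at 127735434 to 127742951 (gene identifier 4609), lay under a strong peak in every library. The window of 5 kb on either side of its lower end, where transcription starts, held 9568 and 9868 bp of peaks in IFN-beta-treated MiaPaCa2 and 9582 and 9608 bp in untreated MiaPaCa2. It held 6603 and 6507 bp in the IRF1 knockout clones and 6377 and 6402 bp in the WT clones. It held 6711 and 6457 bp in IFN-beta-treated CFPAC1 and 6481 and 6630 bp in untreated CFPAC1. The lines were thus fully separated. The 8 CFPAC1 libraries lay between 6377 and 6711 bp, and the 2 MiaPaCa2 groups overlapped. By mean the order was IFN-beta-treated MiaPaCa2 (9718 ± 212 bp), untreated MiaPaCa2 (9595 ± 18.4 bp), IFN-beta-treated CFPAC1 (6584 ± 180 bp), untreated CFPAC1 (6556 ± 105 bp), IRF1 knockout clones (6555 ± 67.9 bp) and WT clones (6390 ± 17.7 bp; SD, n = 2 each).

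**Figure D2:**
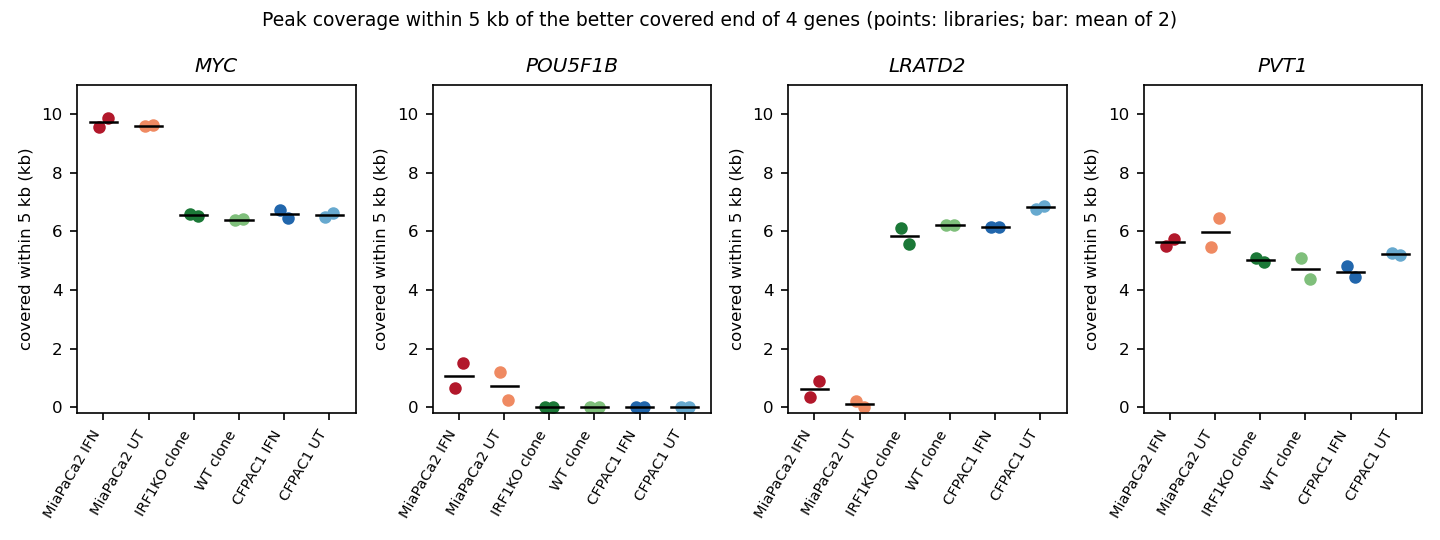
Length covered by peaks (kb) within 5 kb of the better covered end of MYC, POU5F1B, LRATD2 and PVT1 in each library (points) with the mean of 2 (bar). MYC lies at 9568 to 9868 bp in MiaPaCa2 and 6377 to 6711 bp in CFPAC1, POU5F1B is at 0 in all CFPAC1 libraries, and LRATD2 is high in CFPAC1.

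The MYC peak had its summit 1091 to 1963 bp past the lower end of the gene in all 12 libraries. The enrichment over background that the authors' peak caller gave it was 55.0 and 38.3 in IFN-beta-treated MiaPaCa2, 39.2 and 24.0 in untreated MiaPaCa2, 28.8 and 23.3 in the IRF1 knockout clones and 20 and 22.2 in the WT clones. It was 30.6 and 20.2 in IFN-beta-treated CFPAC1 and 23.8 and 18.4 in untreated CFPAC1. These folds depend on each library's depth and control and rank peaks within a list only, where the MYC peak stood at the percentiles 94.3 to 99.4. The lines differed in the width of the peak. In MiaPaCa2 the locus was a single peak of 12487 to 13035 bp that reached past the higher end of CASC11, a long noncoding RNA gene beside MYC, and in CFPAC1 the peak at the MYC start spanned 6841 to 9557 bp.

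Neither IFN-beta nor the IRF1 knockout gave a call at MYC. The test was limma, fitted over 15513 gene windows on log2(covered bp + 500) after centring each library on its mean. With IFN-beta the MYC window changed by 0.15 ± 0.09 (SE) in CFPAC1 (adjusted p = 0.584), where 0.986% of all windows were called, and by 0.10 ± 0.09 in MiaPaCa2 (adjusted p = 0.985), where 0.651% were called. The difference between these responses was -0.05 ± 0.12 (adjusted p = 0.979; 0.058% of windows called). Untreated MiaPaCa2 already filled 9582 and 9608 bp of this window of 5 kb on either side, which left little room for a rise. The MiaPaCa2 change and the difference of responses therefore cannot show whether MYC acetylation rose in that line. The IRF1 knockout clones differed from the WT clones by -0.08 ± 0.09 (adjusted p = 0.737; 1.25% called), although both knockout clones held more covered bases than both WT clones. The WT clones differed from untreated bulk CFPAC1 by -0.02 ± 0.09 (adjusted p = 0.998; 0.00645% called). Untreated MiaPaCa2 exceeded untreated CFPAC1 by 0.58 ± 0.09, with 48.9% of all windows called, by 0.17 when the window was narrowed to 2 kb on either side and by 1.27 when it was widened to 20 kb.

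POU5F1B, at 127413447 to 127417224 (gene identifier 5462), had no peak within its body in any library. Within 5 kb of its lower end, IFN-beta-treated MiaPaCa2 held 661 and 1500 bp of peaks and untreated MiaPaCa2 held 1219 and 252 bp, while all 8 CFPAC1 libraries were at 0. The 2 MiaPaCa2 groups overlapped (limma, adjusted p = 0.975). The peaks near the gene were small. The closest, in IFN-beta-treated MiaPaCa2, were 360 and 316 bp long with folds of 3.56 and 3.91, at the percentiles 8.33 and 31.1 of their lists, and untreated MiaPaCa2 had no peak within 2 kb of either end. The acetylation near POU5F1B lay to its left, over the genes from CASC19 to CCAT2.

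Between CASC19 and POU5F1B peaks covered 169 and 189 kb in IFN-beta-treated MiaPaCa2 and 154 and 173 kb in untreated MiaPaCa2, of 225.7 kb. They covered 37.2 and 28.1 kb in the IRF1 knockout clones, 44.2 and 42.2 kb in the WT clones, 61.0 and 68.6 kb in IFN-beta-treated CFPAC1 and 63.0 and 86.3 kb in untreated CFPAC1. Each MiaPaCa2 library thus lay above every CFPAC1 library. From POU5F1B to MYC coverage was 58.8 to 90.3 kb in MiaPaCa2 against 4.57 to 21.0 kb in CFPAC1, and over the PVT1 body 195 to 236 kb in MiaPaCa2 against 54.1 to 107 kb in CFPAC1. The section from the left edge to LRATD2 had the opposite order, with 0 to 0.2 kb in MiaPaCa2 and 14.1 to 35.7 kb in CFPAC1.

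**Figure D3:**
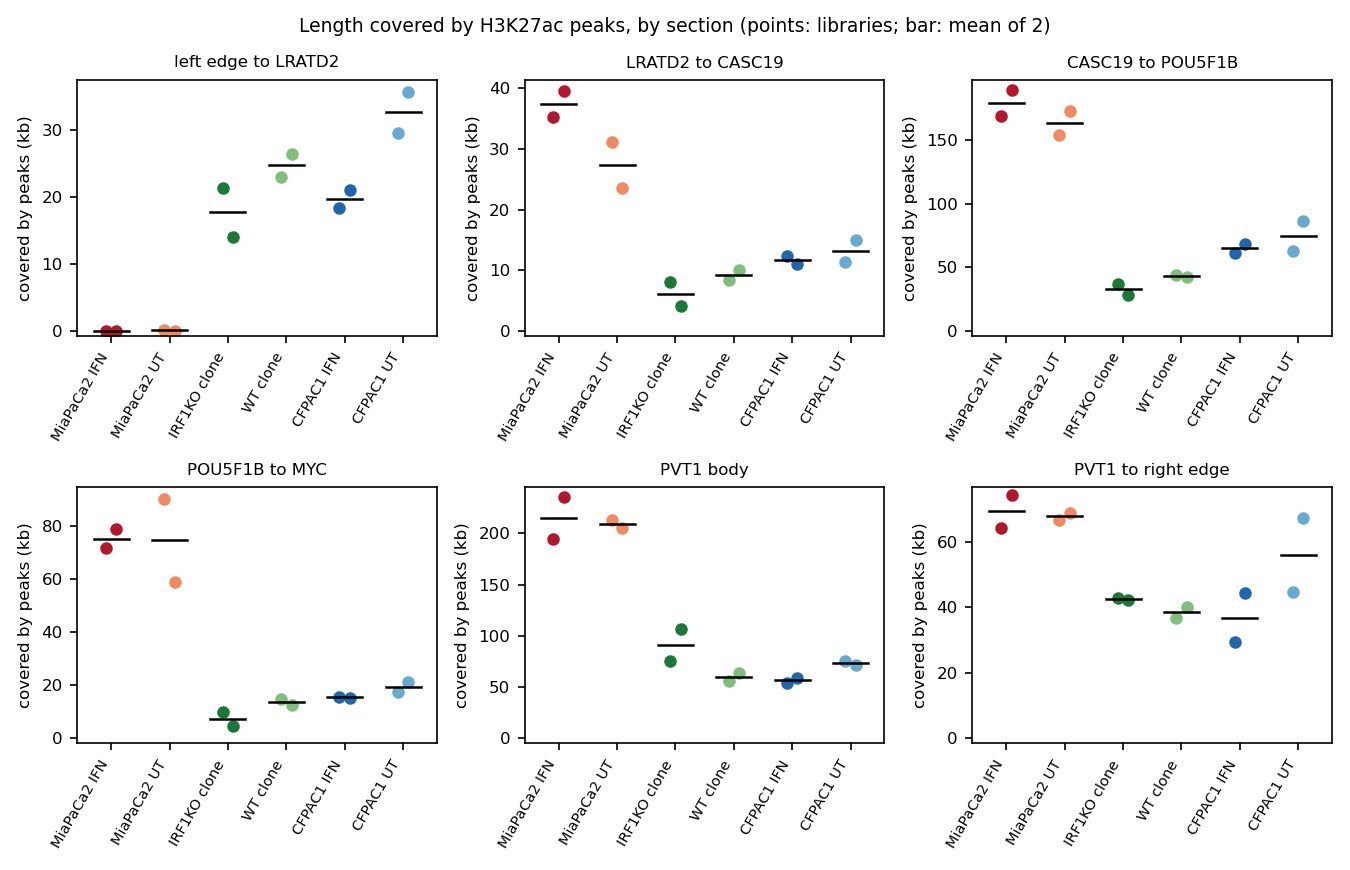
Length covered by peaks (kb) in 6 sections of the neighbourhood, in each library (points) with the mean of 2 (bar). MiaPaCa2 is above CFPAC1 from LRATD2 to the end of the PVT1 body and at 0 to 0.2 kb left of LRATD2, and the IRF1 knockout clones, at 75.1 and 107 kb, lie above the WT clones, at 55.9 and 63.3 kb, over PVT1.

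The locus with most covered bases over the 12 libraries lay over CCAT1, at 127204204 to 127235776. It was covered over 30867 and 31529 bp in IFN-beta-treated MiaPaCa2, 28895 and 31184 bp in untreated MiaPaCa2, 20116 and 16328 bp in the IRF1 knockout clones, 22786 and 19523 bp in the WT clones, 28741 and 28833 bp in IFN-beta-treated CFPAC1 and 26852 and 30281 bp in untreated CFPAC1. Untreated MiaPaCa2 and untreated CFPAC1 overlapped there, and the clones lay below both. In 3 of the 4 MiaPaCa2 libraries this locus held the peak with the highest fold of the whole neighbourhood, up to 62.1.

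The next loci to the right separated the lines. The locus over CASC21 at 127241203 to 127275291 held 29434 and 33263 bp in untreated MiaPaCa2 and 11226 and 20242 bp in untreated CFPAC1. The locus at 127325085 to 127350746, within CASC21 and CASC8, held 20542 and 24692 bp in untreated MiaPaCa2 and 0 and 893 bp in untreated CFPAC1. The locus over CCAT2, at 127385575 to 127405834, held 19291 and 20219 bp in IFN-beta-treated MiaPaCa2, 19956 and 18860 bp in untreated MiaPaCa2, and 0 bp in all 8 CFPAC1 libraries.

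Between POU5F1B and MYC, the locus with most coverage lay at 127608646 to 127621275 and held 12564 and 10040 bp in untreated MiaPaCa2 and 449 and 862 bp in untreated CFPAC1. Its neighbour at 127598551 to 127603561 held 4646 and 3677 bp in untreated MiaPaCa2 and 0 bp in all CFPAC1 libraries. Near LRATD2, the closest protein-coding gene on the left, the order turned. The locus over LRATD2, at 126553286 to 126558560, held 200 and 0 bp in untreated MiaPaCa2 and 5163 and 5177 bp in untreated CFPAC1. The locus to its left at 126497704 to 126508001 held 0 bp in all 4 MiaPaCa2 libraries, 8243 and 8409 bp in the IRF1 knockout clones, 8971 and 8554 bp in the WT clones, 7569 and 8491 bp in IFN-beta-treated CFPAC1 and 10032 and 9810 bp in untreated CFPAC1. The LRATD2 peak had the highest fold of the neighbourhood in 4 of the 8 CFPAC1 libraries and in no MiaPaCa2 library.

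The PVT1 start, at 127794524, had a peak near it in all 12 libraries. Coverage within 5 kb of it was 5488 and 5751 bp in IFN-beta-treated MiaPaCa2, 5473 and 6442 bp in untreated MiaPaCa2, 5093 and 4955 bp in the IRF1 knockout clones, 5090 and 4356 bp in the WT clones, 4818 and 4432 bp in IFN-beta-treated CFPAC1 and 5264 and 5199 bp in untreated CFPAC1. Every MiaPaCa2 library lay above every CFPAC1 library there. Within the gene body, the locus at 127904056 to 127921867 held 17379 and 17571 bp in untreated MiaPaCa2 and 11955 and 13143 bp in untreated CFPAC1, and that at 127802139 to 127813185 held 10154 and 10559 bp in untreated MiaPaCa2 and 7005 and 7039 bp in untreated CFPAC1. LINC02912, a noncoding gene inside PVT1, had 8465 to 9746 bp within 5 kb in MiaPaCa2 and 0 to 3291 bp in CFPAC1. PCAT1, LINC00824, LINC00976 and LINC00977 had no peak within 5 kb of either end in any library. LINC00824 did hold a locus inside its body, farther from its ends, with a peak in all 12 libraries. That peak had the highest fold of the neighbourhood in IFN-beta-treated CFPAC1 replicate 2 (26.5) and untreated CFPAC1 replicate 2 (23.8).

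Of the 312 loci of the neighbourhood with a peak in at least 2 libraries, limma called 162 higher and 22 lower in untreated MiaPaCa2 than in untreated CFPAC1. Over all 110479 loci tested, 41.3% were called, 21.7% higher and 19.6% lower. Nothing is read from these counts, since the interval was chosen with such differences known and loci present in 1 line had to differ. Of the 162, 105 had 0 bp in both untreated CFPAC1 libraries and 38 were among 59 with peaks in all 4 libraries, a class in which 37.1% were called higher and 8.37% lower in the genome. Of the 22, 19 had 0 bp in both untreated MiaPaCa2 libraries. By presence of a peak, 98 loci were held by both untreated MiaPaCa2 libraries and neither untreated CFPAC1 library, and 25 the other way round, of 383 loci with any peak in the 4 libraries, beside 10.5% and 20.6% of all such loci in the genome. All 10 loci with most covered bases over the 12 libraries had a positive fitted difference, MYC with 0.67 ± 0.12. Under quantile normalization it was 0.02 at MYC and negative at 3 of the 10, of which 1 lay in CASC21 and CASC8 and 2 in PVT1.

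**Figure D4:**
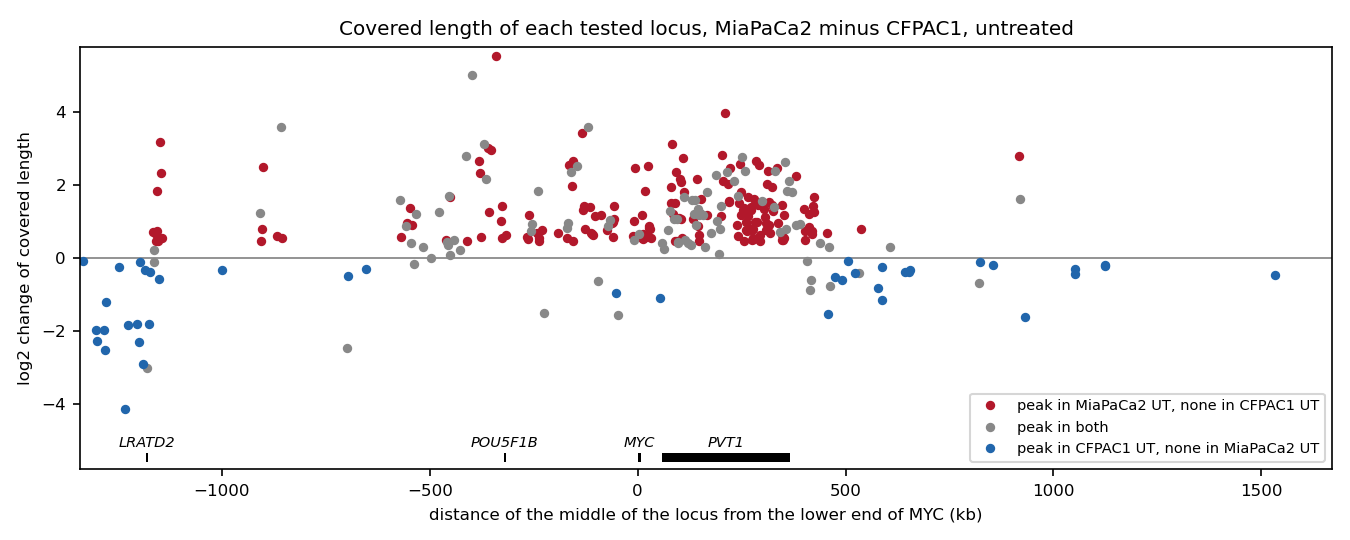
Difference in covered length, untreated MiaPaCa2 minus untreated CFPAC1, on the log2(covered bp + 500) scale, for each tested locus (points; red, peaks only in untreated MiaPaCa2; blue, only in untreated CFPAC1; grey, in both) by distance from the lower end of MYC in kb. Loci from CASC19 through PVT1 lie mostly above 0 and those left of LRATD2 mostly below it. For loci with no peak in a line, the value depends on the 500 bp added.

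In CFPAC1, limma called 11 of 312 loci of the neighbourhood (3.53%) with IFN-beta for 2 h, against 4.7% of all loci. Of the 11, 5 were higher and 6 lower in IFN-beta-treated than in untreated CFPAC1, beside 3.08% higher and 1.62% lower in the genome. Loci that were not called are not thereby shown to be unchanged. Over loci with any peak in these 4 libraries, the median change was -0.16 in the neighbourhood and -0.09 in the genome. Without centring, the split was 3 higher and 12 lower. Of the 5 that rose, 3 lay between LRATD2 and CASC19, 1 near the higher end of PVT1 and 1 at the right edge. The locus at 126916070 to 126917211 held 1011 and 584 bp with IFN-beta and 0 bp in both untreated libraries (adjusted p = 0.00386), and its neighbour at 126915297 to 126915878 held 580 and 494 bp with IFN-beta and 0 bp without it (adjusted p = 0.0181). The locus at 129268742 to 129270042 held 1255 and 1226 bp with IFN-beta and 358 and 269 bp without it, a change of 1.22 ± 0.22 (adjusted p = 0.0128). A locus near the higher end of PVT1, at 128094295 to 128097135, held 1325 and 1032 bp with IFN-beta and 304 and 0 bp without it (adjusted p = 0.0325). The locus at 126734578 to 126735869 held 1292 and 570 bp with IFN-beta and 276 and 211 bp without it (adjusted p = 0.0498). Groups did not overlap at any of these.

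Of the 6 loci that fell with IFN-beta in CFPAC1, 4 lay in the PVT1 body, which held 41 of the 140 tested loci with a peak in either group. The largest, at 127889390 to 127896626, held 840 and 1489 bp with IFN-beta and 3098 and 3581 bp without it, a change of -1.11 ± 0.20 (adjusted p = 0.0147). The locus at 127832771 to 127834197 held 0 bp in both treated libraries and 1152 and 547 bp in the untreated ones (adjusted p = 0.0115). The other 2 in PVT1, at 127813271 to 127815100 and 127831067 to 127832667, had adjusted p-values of 0.0191 and 0.0183. The remaining 2 were short loci with peaks only in untreated CFPAC1, at 126456072 to 126457195 and 128788181 to 128788561. By presence, 2 loci were gained and 14 lost with IFN-beta of 167 with any peak, beside 3.15% and 6.05% in the genome. Peak coverage of the treated libraries lay below that of the untreated at 58 of 140 loci and above it at 6, beside 31.7% and 11.1% of loci in the genome. Of the 65 loci with peaks in all 4 libraries, 2 were called higher and 1 lower, beside 1.21% and 1.01% of such loci in the genome. The treated lists were also the shorter, with 85908 and 85623 peaks against 97416 and 102802. Whichever of the 4 libraries was left out, the count of called loci dropped to between 0 and 6.

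In MiaPaCa2, 3 loci rose with IFN-beta and 0 fell, of 312, against 3.34% of all loci (1.54% higher and 1.8% lower). At an unadjusted p under 0.05 there were 28 in both directions, and quantile normalization gave 5 higher and 1 lower. The locus over LRATD2 held 354 and 884 bp with IFN-beta and 200 and 0 bp without it, a change of 0.91 ± 0.19 (adjusted p = 0.0399), far under the 4766 to 5266 bp of the CFPAC1 libraries. The loci at 127177144 to 127177727, left of CASC19, and at 127488386 to 127488795, right of CASC8, held 526 and 559 bp and 336 and 410 bp with IFN-beta, and 0 bp in both untreated MiaPaCa2 libraries and all CFPAC1 libraries (adjusted p = 0.00652 and 0.0113). By presence, 5 loci were gained and 0 lost of 369, beside 2.16% and 3.31% in the genome. Of the 159 loci with peaks in all 4 MiaPaCa2 libraries, limma called 0, against 0.759% higher and 0.236% lower of such loci in the genome. Covered length in the treated libraries lay above the untreated at 47 of 271 loci and below it at 16, beside 11.8% and 18.1% of loci in the genome. Without IFN-beta-treated replicate 1 no locus was called, and the LRATD2 call was lost whichever of the 4 libraries was left out. The difference between the responses of the lines was called at 2 of 312 loci, both higher in MiaPaCa2, against 1.51% of all loci (0.286% higher and 1.23% lower), and both had peaks in 1 group only.

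The IRF1 knockout clones had more acetylation in the PVT1 body than the WT clones. Peaks covered 75.1 and 107 kb of it in the knockout clones and 55.9 and 63.3 kb in the WT clones, beside 54.1 and 59.0 kb in IFN-beta-treated and 75.2 and 71.4 kb in untreated bulk CFPAC1. The knockout clones lay above the WT clones without overlap at 26 of 59 PVT1 loci, 44.1%, and below them at 1, beside 16.6% and 13.7% of all loci in the genome. In the sections left of MYC the order was the other way. From the left edge to LRATD2 the knockout clones held 21.4 and 14.1 kb and the WT clones 23.0 and 26.5 kb, from CASC19 to POU5F1B 37.2 and 28.1 kb against 44.2 and 42.2 kb, and from POU5F1B to MYC 10.0 and 4.57 kb against 14.7 and 12.6 kb. Over the whole interval the groups overlapped, with 208 and 215 kb in the knockout clones and 196 and 209 kb in the WT clones.

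With limma, 8 loci were higher and 1 lower in the IRF1 knockout clones than in the WT clones. These were 9 of 312, against 2.94% of all loci (1.61% higher and 1.32% lower). PVT1 held 7 of the 8, and 59 of the 134 tested loci with a peak in these clones. Of the 57 loci with peaks in all 4 clones, 5 were higher and 1 lower, beside 0.405% and 0.994% of such loci in the genome. Without centring, 9 loci were higher and 0 lower. The locus over LINC02912, at 127942488 to 127949377, held 686 and 1514 bp in the knockout clones and 0 bp in the WT clones and in all bulk CFPAC1 libraries (adjusted p = 0.0088). MiaPaCa2 held 5821 to 6861 bp there. Within 5 kb of the lower end of LINC02912 the knockout clones held 1746 and 3291 bp and the WT clones 0 and 1176 bp. Untreated bulk CFPAC1 held 475 and 200 bp in that window. The locus at 127974714 to 127977509 held 1066 and 1851 bp in the knockout clones and 200 and 241 bp in the WT clones, a change of 1.38 ± 0.20 (adjusted p = 0.0127). The locus at 127959537 to 127973736 held 4822 and 6398 bp in the knockout clones and 2963 and 3219 bp in the WT clones, a change of 0.72 ± 0.11 (adjusted p = 0.0167). Its merged span takes in MIR1205, but most of the clone coverage lay elsewhere in it. Within 5 kb of MIR1205 the knockout clones held 0 and 1312 bp and both WT clones 0 bp.

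The locus at 127889390 to 127896626, which fell with IFN-beta in bulk CFPAC1, held 3461 and 5211 bp in the knockout clones and 1488 and 1808 bp in the WT clones, a change of 1.12 ± 0.20 (adjusted p = 0.0258). The WT clones thus lay near the IFN-beta-treated bulk cells there, at 840 and 1489 bp, and the knockout clones at or above the untreated bulk cells, at 3098 and 3581 bp. This locus was singled out because both comparisons called it, so that pattern follows from the choice. A link between the IFN-beta and knockout differences was not tested. The locus at 127924787 to 127929577 held 3358 and 3761 bp in the knockout clones and 2190 and 2197 bp in the WT clones, a change of 0.56 ± 0.12 (adjusted p = 0.0434). The other 2 in PVT1, at 127896791 to 127900102 and 127844914 to 127846791, had adjusted p-values of 0.049 and 0.0316. The eighth, at 128514423 to 128514668 in LINC00824, was a short locus of the knockout clones (adjusted p = 0.0493). The 1 that was lower, at 126530957 to 126532984, held 444 and 259 bp in the knockout clones and 1382 and 1910 bp in the WT clones, a change of -1.37 ± 0.30 (adjusted p = 0.0478).

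**Figure D5:**
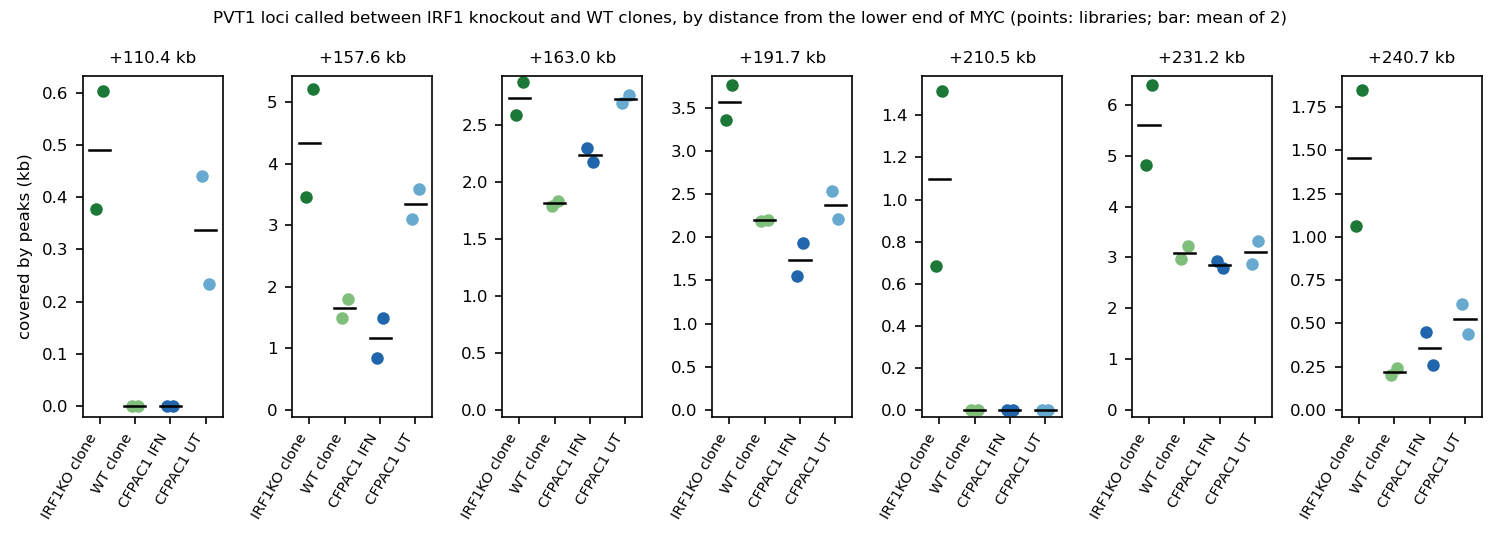
Covered length (kb) of the 7 PVT1 loci called between IRF1 knockout and WT clones, in the 8 CFPAC1 libraries (points) with the mean of 2 (bar), a panel per locus with its own axis, headed by its distance from the lower end of MYC. Both knockout clones lie above both WT clones in every panel, since these loci were chosen for that difference.

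By presence, 7 loci were gained and 4 lost in the knockout clones of 143 with any peak, beside 3.42% and 2.36% in the genome. PVT1 held 6 of the 7 gained, beside 59 of the 134 tested loci with a peak in these clones. Without knockout clone 2, which stands apart on the rest of chromosome 8, limma called 1 locus. Without knockout clone 1 it called 24, of which 15 were higher and 9 lower. Without WT clone 1 it called 1, and without WT clone 2 it called 4. At the LINC02912 locus the change ran from 1.26 to 1.94 with each of the 4 libraries left out in turn. Under the other processing alternatives, 6 kept its call and 3 did not, and the lowest change was 0.51. Over the 10 epithelial markers the knockout clones held 63.6 and 55.5 kb of peaks and the WT clones 75.2 and 70.2 kb, with all 10 covered in each library and 0 called by limma. GRHL2, an epithelial transcription factor, held 4830 and 299 bp in the knockout clones and 7374 and 6433 bp in the WT clones. The part of these differences in the PVT1 result was not tested.

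The WT clones, single-cell clones with the empty vector, held 173 and 180 peaks in the neighbourhood and untreated bulk CFPAC1 held 245 and 256. Their whole lists were also the shorter, with 90115 and 80584 peaks against 97416 and 102802 in untreated bulk cells. By presence, 1 locus was gained and 12 lost in the WT clones relative to untreated bulk CFPAC1, of 167, beside 1.48% and 4.32% in the genome. With limma 3 loci were lower and 0 higher, of 312, against 0.902% of all loci (0.357% higher and 0.546% lower), with 30 at an unadjusted p under 0.05. The locus at 127275752 to 127278092 in CASC21 held 0 and 313 bp in the WT clones and 1493 and 2022 bp in untreated bulk cells, a change of -1.73 ± 0.23 (adjusted p = 0.0318). The locus at 127821703 to 127824663 in PVT1 held 0 and 246 bp in the WT clones and 1280 and 1571 bp in untreated bulk cells (adjusted p = 0.0498). The third, at 126456072 to 126457195, had no peak in the WT clones (adjusted p = 0.0309). At most 1 locus was called when any of the 4 libraries was left out. In a fit of the 4 compared libraries alone, limma called 0 loci here, in both IFN-beta comparisons and between the knockout and WT clones. The untreated bulk CFPAC1 libraries serve this comparison, the IFN-beta comparison in CFPAC1 and that between lines, so these results are not independent.

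MYC acts through MAX, which also binds a family of repressors. A wider list of 12 genes of the MYC network was used, which is not limited to genes whose products bind MAX and takes in MLX, MLXIP and MLXIPL. Of these 12, MYCN, a paralog of MYC, had 0 bp in all libraries except IRF1 knockout clone 1. Of the 11 with values, 4 were higher and 4 lower in untreated MiaPaCa2 than in untreated CFPAC1, beside 29.0% and 19.9% of all gene windows. MXD4, a repressor partner of MAX, held 6372 and 3325 bp in untreated MiaPaCa2 and 1156 and 1082 bp in untreated CFPAC1, a change of 1.72 ± 0.46 (limma, adjusted p = 0.0119). MXI1, another such partner, held 876 and 1039 bp in untreated MiaPaCa2 and 3224 and 2312 bp in untreated CFPAC1, a change of -1.09 ± 0.23 (adjusted p = 0.0037). With IFN-beta, limma called 0 of the 11 in either line, with 2 in CFPAC1 and 3 in MiaPaCa2 at an unadjusted p under 0.05. In the IRF1 knockout clones MAX was the 1 gene called, with 2806 and 2444 bp against 4761 and 4152 bp in the WT clones, a change of -0.78 ± 0.11 (limma, adjusted p = 0.0171), beside 0.709% of all windows called higher and 0.541% lower.

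Of 15 genes that MYC is known to activate, 9 were higher and 1 lower in untreated MiaPaCa2, beside 29.0% and 19.9% of all gene windows. The median change was 0.42, beside 0.16 over all genes with values. Among them, and named after their values were seen, FBL, a nucleolar methyltransferase, rose by 0.78 (limma, adjusted p = 0.000243) and ODC1, the first enzyme of polyamine synthesis, by 0.88 (adjusted p = 0.0193). CDK4, a cell cycle kinase, fell by 0.59 (adjusted p = 0.00652). In the IFN-beta and knockout comparisons limma called none of these genes, of 13 with values in CFPAC1 with IFN-beta and in the clones and of 15 in MiaPaCa2 with IFN-beta, with 2 in CFPAC1 with IFN-beta, 0 in MiaPaCa2 with IFN-beta and 2 in the knockout clones at an unadjusted p under 0.05. HSPD1 and HSPE1 share a promoter, so their windows hold nearly the same peaks, and CCND2 and TERT had no peak in any CFPAC1 library. The windows whose coverage over the 12 libraries was most like that of MYC, of 15513, were those of CCDC74A (r = 0.997), H2AC14, DBF4B, DLGAP4 and MAPK8IP2. Those most like POU5F1B were ZNF423 (r = 0.98), LHX3, SPACDR, LOC124904333 and TLR6. These libraries share lines and treatments, and the values describe them only.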

How the data were processed

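H3K27ac was measured in 12 libraries, each a deposited narrowPeak list. Per the submitters' processing notes, Trimmomatic 0.38, Bowtie2 2.2.6, SAMtools and MACS2 2.1.0.20150731 were used, with GRCh38. Each deposited list gives the authors' fold enrichment (a ratio over background) and −log10 p-value and −log10 q-value per peak. The deposited score column repeats the −log10 q values and was not used. The smallest −log10 q was 1.3 to 1.37. Control libraries and read depth are not given in the sources used here, so no counting interval can be given. Gene positions come from RefSeq GRCh38.p14, which carries no strand here.

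Peaks were merged across libraries (1 bp overlap), and the bases covered per locus, or within 5 kb of the better covered end of each protein-coding gene, were computed. limma 3.58.1 (R 4.3.3, trend) was fitted to log2(covered bp + 500), centred per library, over all 12 libraries with features covered in at least 2, and adjusted by Benjamini-Hochberg over 110479 loci or 15513 genes, with a threshold of 0.05. Features at 0 in both groups were not called. A permutation test of 2 against 2 cannot go below p = 0.333, so it was not used. On simulated data for the IFN-beta comparison in CFPAC1, 19.5%, 69.5% and 80.0% of 200 loci changed by 1, 2 and 3 log2 units were recovered, over 110479 loci. The changed loci were drawn from the better covered ones, so these rates do not describe loci at 0 bp in most libraries. The members and lists were chosen with earlier results of these data known. Named were MYC, POU5F1B, the noncoding and coding genes of the interval, the 10 loci with most covered bases, loci called by limma outside the line comparison, and examples of the other calls. Alternatives were a replicate block, 2 other added lengths, stricter or equal-sized peak sets, other scalings, no filter, the compared libraries alone, 5 kb tiles, merging across 1 kb, windows of 2 and 20 kb, and leaving out each library.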

Additional observations from a re-analysis of the deposited data

Results flagged for a closer look

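The difference between the IFN-beta responses of MiaPaCa2 and CFPAC1 passed the limma threshold at 2 loci of the neighbourhood. At 126456072 to 126457195 the fitted difference was 1.36 ± 0.25 on the log2(covered bp + 500) scale (SE; adjusted p = 0.04). This locus had peaks of 644 and 1124 bp in untreated CFPAC1 and 0 bp in the other 10 libraries. At 127177144 to 127177727 it was 0.97 ± 0.18 (adjusted p = 0.0423), with 526 and 559 bp in IFN-beta-treated MiaPaCa2 and 0 bp in the other 10 libraries. Both values depend on the 500 bp added. With 1 library left out, the difference ran from 1.29 to 1.41 at the first locus and from 0.93 to 1.01 at the second. Leaving out either library with a peak put the locus below the filter of 2 covered libraries, so it was not tested. Each call thus rests on 2 libraries of 1 group.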

How the results depend on the processing

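Counts of loci called by limma in the neighbourhood moved by over 1.5 times under these alternatives. With the compared libraries alone, the 2 IFN-beta comparisons, the knockout comparison, the difference of responses and the WT clones against bulk cells each gave 0. For IFN-beta in CFPAC1 (11), 5 kb tiles gave 6 and merging across 1 kb gave 4. For IFN-beta in MiaPaCa2 (3), a −log10 q of at least 5 gave 7, equal numbers of peaks 15, quantile normalization 6 and no filter 1. For the knockout (9), no filter gave 4 and merging across 1 kb gave 1. For the line difference (184), merging across 1 kb gave 59. For the difference of responses (2), adding 100 bp gave 10, adding 1000 bp 0, the stricter q 8, equal numbers 11, no centring 9, quantile normalization 5, no filter 0, tiles 1 and merging 0. For WT clones against bulk cells (3), adding 100 bp gave 7, no centring 9, no filter 1, tiles 5 and merging 0.

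Counts by presence moved with merging across 1 kb to 7 for IFN-beta in CFPAC1, 3 for the knockout and 27 for the lines, with the stricter q to 8 for IFN-beta in MiaPaCa2, 7 for the knockout and 8 for WT clones, and with equal numbers of peaks to 14, 6 and 6 in the same 3. At MYC the line difference was 0.17 in the 2 kb window, against 0.58 in the 5 kb window. At POU5F1B, where CFPAC1 is at 0 and the fitted value depends on the added length, it was 1.24, 0.84 with the stricter q and 1.25 with the compared libraries alone. Under quantile normalization the line difference was -0.29 at 127285292 to 127304270, and -0.26 and -0.08 at 2 PVT1 loci. Centring moved the median of all 110479 loci, those without a peak in the compared libraries included: it was 0.113 with centring and -0.00953 without it for IFN-beta in CFPAC1, and 0.19 and -0.0486 for the lines.

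With each library left out in turn, and the lone library of its group assumed to vary like the others, limma counts ran from 0 to 6 for IFN-beta in CFPAC1, 0 to 3 in MiaPaCa2, 1 to 24 for the knockout, 148 to 190 for the lines, 0 to 0 for the difference of responses and 0 to 1 for WT clones against bulk cells. Presence counts, which then need 1 library of that group, ran from 21 to 50, 37 to 52, 15 to 46, 143 to 205 and 22 to 56 for the same comparisons without the difference of responses. The line difference ran from 0.67 to 1.82 at POU5F1B and from 0.55 to 0.60 at MYC.

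Replicate numbers were not treated as pairs, since no label gives them a shared source. Same-numbered deviations correlated at -0.0835 to 0.223, which does not settle whether same-numbered libraries share a batch. With the replicate block, limma called 12 loci for IFN-beta in CFPAC1, 2 in MiaPaCa2, 5 for the knockout, 174 for the lines, 0 for the difference of responses and 0 for WT clones against bulk cells. Peak lists carry no read depth, so a missing peak shows only that no peak passed the caller's threshold.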
